A study of Mus musculus with 12 samples.

Results

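The receptors that let phagocytes bind and swallow dying cells and modified lipoproteins, with their bridging ligands, were followed in microglia sorted from the mouse brain. These are 10 genes chosen by their symbols, *Axl*, *Mertk* and *Tyro3* (the TAM receptor tyrosine kinases), *Gas6* and *Pros1* (their ligands), *Mfge8* (a bridging protein), *Msr1*, *Marco* and *Scarb1* (scavenger receptors) and *Lrp1* (a large endocytic receptor), out of 55401 genes counted. The choice was made with earlier results of these data known. Of the 10, 9 were among the 16451 genes that passed a filter on low counts and were tested, and *Marco*, with 0 to 14 reads per library, did not pass. Sham and tFCI surgery in WT and miKO mice made 4 groups, and each held 3 libraries of CD45int CD11b+ cells.

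WT mice were CX3CR1wt/wt:HDAC3loxp/loxp and miKO mice CX3CR1CreER/wt:HDAC3loxp/loxp, so that both genotypes carried the floxed *Hdac3* alleles and only miKO mice carried the recombinase. All were male. To induce the knockout, tamoxifen, which activates CreER, was injected on 5 consecutive days at 6 to 8 weeks of age, and surgery followed after at least a month. Whether WT mice were injected too is not given in the sources used here, and if they were not, tamoxifen and genotype cannot be told apart. In tFCI (transient focal cerebral ischemia) the middle cerebral artery was occluded for 60 min, and Sham mice had the arteries exposed without occlusion. The tFCI cells were sorted on day 3, and 1 library combined cells of 3 to 4 hemispheres. CreER sits in the *Cx3cr1* gene, whose promoter is active in microglia and in other myeloid cells, and it takes the place of 1 functional *Cx3cr1* allele, so that loss of *Hdac3* and loss of that allele cannot be told apart. Per the labels, replicate 1 of each group belonged to batch 1, and replicates 2 and 3 to batch 2. In WT-Sham, WT-tFCI and miKO-tFCI the closest pair of replicates was 2 and 3, but in miKO-Sham it was 1 and 2, which also share the stem of their deposited names. Their counts differed with a chi-square of 2.82 per degree of freedom, more than sampling noise but less than any other pair (3.65 to 76.6), and whether they came from separate sets of animals was not tested. They were kept as 2 libraries, and calls that changed when they were averaged into 1 are given beside the result.

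Efferocytosis is the removal of dying cells by phagocytes. A dying cell shows phosphatidylserine on its surface, and GAS6, protein S and MFG-E8 bind this lipid and connect it to receptors on the phagocyte. GAS6 and protein S (encoded by *Pros1*) bridge to the TAM kinases, GAS6 being the ligand that AXL depends on, while MFG-E8 bridges to the integrins αvβ3 and αvβ5. MERTK is known as the TAM receptor of resting microglia, and AXL as one that rises in reactive myeloid cells. Scavenger receptors and LRP1 take up modified lipoproteins, cholesterol-rich particles and debris such as myelin.

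The promoters of *Axl*, *Mertk* and *Gas6* are shown because the results turn on this pair of receptors and their ligand. RefSeq promoter windows of GRCm38.p6 were found for 8 of the 10 genes, and here run from 250 bases before to 30 bases after the gene start, read in the direction of the gene. Capitals mark 3 motifs searched on both strands: the GC box GGGCGG (a site for Sp-family factors), the core GAGGAA (of the kind bound by PU.1, the myeloid ETS factor) and the AP-1 site TGANTCA. No marked motif overlaps one of another kind in these windows.
Axl (chr7:25788704-25788983, minus strand): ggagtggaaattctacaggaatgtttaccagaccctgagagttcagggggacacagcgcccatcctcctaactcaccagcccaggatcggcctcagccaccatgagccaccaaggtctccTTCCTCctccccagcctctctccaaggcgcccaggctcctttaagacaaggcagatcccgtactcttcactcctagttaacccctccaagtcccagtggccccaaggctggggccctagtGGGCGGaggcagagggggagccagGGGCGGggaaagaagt
Mertk (chr2:128698665-128698944, plus strand): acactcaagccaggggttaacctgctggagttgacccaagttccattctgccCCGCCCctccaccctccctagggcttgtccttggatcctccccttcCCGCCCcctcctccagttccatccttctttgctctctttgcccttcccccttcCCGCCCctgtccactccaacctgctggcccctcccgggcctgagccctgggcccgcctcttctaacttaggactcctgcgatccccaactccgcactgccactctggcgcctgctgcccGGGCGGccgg
Gas6 (chr8:13494506-13494785, minus strand): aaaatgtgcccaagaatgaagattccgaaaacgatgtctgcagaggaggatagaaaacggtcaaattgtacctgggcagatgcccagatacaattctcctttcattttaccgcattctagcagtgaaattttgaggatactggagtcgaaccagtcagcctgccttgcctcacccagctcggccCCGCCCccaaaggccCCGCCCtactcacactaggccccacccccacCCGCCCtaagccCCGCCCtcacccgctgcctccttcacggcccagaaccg
A GC box stood in 7 of the 8 windows and in 34.7% of the 32851 windows of the same length in the table. The core GAGGAA stood in 3 of the 8 (*Axl*, *Mfge8* and *Marco*) and in 26% of all. The AP-1 letters stood in 0 of the 8 and in 7.46% of all. Of the 3 windows printed, that of *Axl* held the GAGGAA core, on the strand opposite to the gene.

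The total of reads on genes ran from 7697864 to 9452222 per library. *Hdac3*, the targeted gene, was at 41.8 ± 6.02 CPM (SD, n = 3) in WT-Sham, 23.9 ± 2.64 in miKO-Sham, 50.2 ± 5.55 in WT-tFCI and 30.7 ± 4.70 in miKO-tFCI, where CPM is the count scaled to a common library size with TMM. It was lower in each miKO library than in each WT library of the same surgery (log2 fold change -0.81 in Sham and -0.71 in tFCI, with adjusted p of 0.00281 and 0.0127 by edgeR with Benjamini-Hochberg adjustment). The microglial label was checked with 10 markers, which include *Cx3cr1*, the gene that carries CreER on 1 allele in miKO. Their summed level was 24097 to 31172 CPM in WT-Sham, 20055 to 24746 in miKO-Sham, 16933 to 18718 in WT-tFCI and 8223 to 15755 in miKO-tFCI. *Cx3cr1* alone had means of 3861.6, 1196.5, 1527.4 and 437.66 CPM in the same order, so the sum is not independent of the genotype. A gene is called below when its adjusted p is under 0.05 and its log2 fold change exceeds 0.58 in size, and an interaction at an adjusted p under 0.05. All p values are from edgeR's quasi-likelihood test over the 12 libraries with batch as a term, adjusted by Benjamini-Hochberg over all genes tested.

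In microglia of uninjured brains, the miKO group carried several times more *Axl*, *Scarb1* and *Msr1* RNA and moderately more *Gas6*, while *Pros1* was lower. After tFCI, *Axl*, *Gas6*, *Mfge8*, *Msr1* and *Scarb1* were higher and *Mertk* was lower in WT. In miKO, *Axl*, *Mfge8* and *Msr1* were higher and *Mertk* was lower after tFCI. *Axl*, *Msr1* and *Scarb1* were also higher in miKO-tFCI than in WT-tFCI. Some of these calls were lost with other processing or without single libraries, as given below for each gene. They are *Pros1* between the Sham groups, *Axl* and *Msr1* between the tFCI groups, *Mertk* after tFCI in both genotypes, *Mfge8* after tFCI in WT and *Axl* after tFCI in miKO. On the log2 scale, the effect of tFCI on *Axl* and *Scarb1* was smaller in miKO than in WT, from higher Sham levels in miKO. *Scarb1* was not called after tFCI in miKO.

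In WT-tFCI vs. WT-Sham, 5 of the 9 genes tested rose and 1 fell, beside 20.9% and 11.7% of all genes tested. In miKO-tFCI vs. miKO-Sham, 3 rose and 1 fell, beside 21.9% and 13.9%. Between genotypes, 4 of 9 were higher and 1 lower in miKO-Sham vs. WT-Sham (8.58% and 6.8% of all genes), and 3 were higher and 0 lower in miKO-tFCI vs. WT-tFCI (4.08% and 4.71%). In the interaction, 0 of 9 were called positive and 2 negative, beside 1.25% and 2.57% of all genes. For both counts of 0 of the 9, 0 values had an unadjusted p under 0.05 in edgeR, and DESeq2 called 0. The median log2 fold change of the 9 was 0.83 in WT and 0.57 in miKO after tFCI, 0.76 between the Sham groups and 0.40 between the tFCI groups. The medians over all genes were 0.02, 0.03, 0.04 and 0.04. The comparisons share groups and are not independent of each other, so their values are given side by side.

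**Figure D1:**
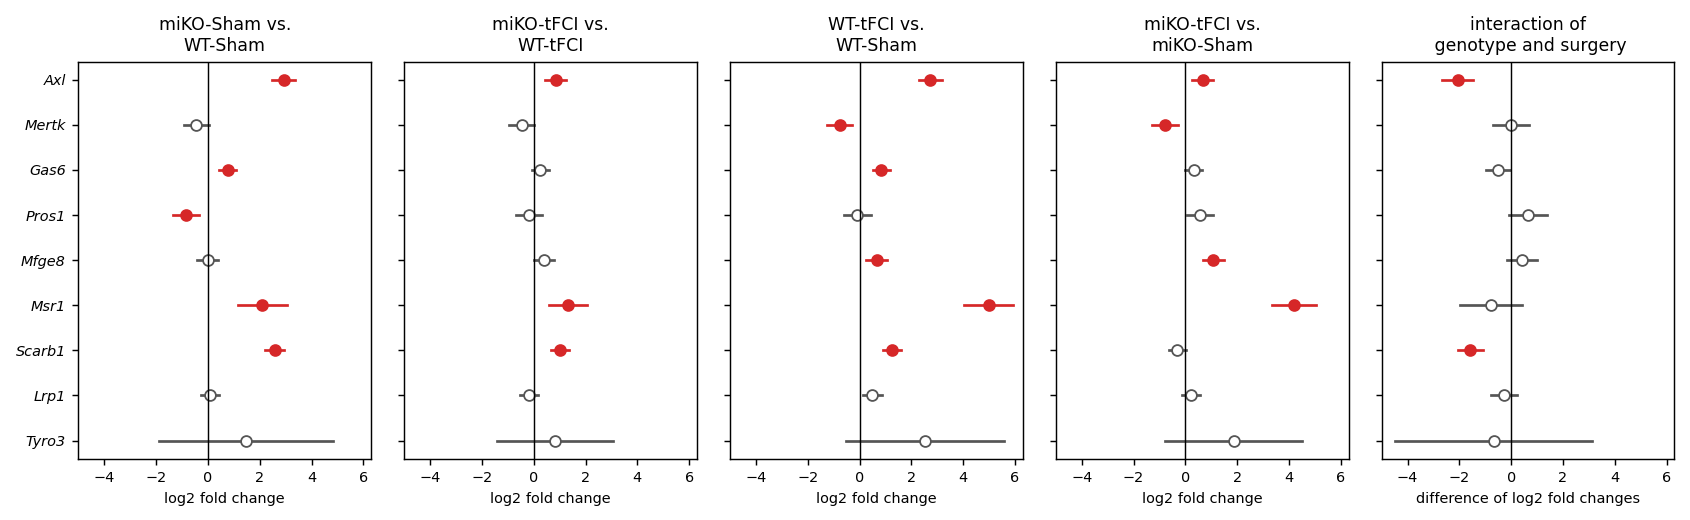
Log2 fold change (horizontal axis) of the 9 genes tested (rows) in the comparisons of 2 groups and, in the last panel, the difference between the log2 fold changes after tFCI in miKO and in WT. Points are edgeR estimates, lines are 95% confidence intervals, and filled red points are called. *Axl* and *Scarb1* lie at -2.07 and -1.57 in the last panel, and *Tyro3* has the widest intervals.

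*Axl* (ENSMUSG00000002602.16, GRCm38 chromosome 7, 25757273 to 25788705, minus strand, 19 exons after merging transcripts) encodes the TAM receptor that uses GAS6. Its level was 14.1, 8.96 and 11.8 CPM in replicates 1, 2 and 3 of WT-Sham, and 101.49, 89.5 and 72.2 CPM in miKO-Sham. After tFCI it was 72.2, 76.4 and 83.2 CPM in WT and 103.24, 149.55 and 164.37 CPM in miKO. WT-Sham stood alone at the bottom, the miKO-Sham and WT-tFCI libraries overlapped, and all 3 miKO-tFCI libraries were above the others, replicate 1 of them by little. The log2 fold change in miKO-Sham vs. WT-Sham was 2.92 (SE 0.21, adjusted p = 4.7e-07 by edgeR), which is 7.56-fold. After tFCI in WT it was 2.73 (SE 0.21, adjusted p = 2.42e-07 by edgeR), 6.65-fold. After tFCI in miKO it was 0.66 (SE 0.19, adjusted p = 0.0118 by edgeR), with 0.02 in batch 1 and 0.96 in batch 2. Without miKO-Sham replicate 3 or miKO-tFCI replicate 3 this call was lost (adjusted p of 0.0648 and 0.0674).

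*Axl* was higher in miKO-tFCI than in WT-tFCI, with a log2 fold change of 0.85 (SE 0.19, adjusted p = 0.0122 by edgeR). This call was lost without WT-tFCI replicate 1 or 2 or miKO-tFCI replicate 3, with adjusted p of 0.0598, 0.0632 and 0.0605. The interaction of genotype and surgery was -2.07 (SE 0.28, adjusted p = 8.6e-04 by edgeR), with -2.32 in batch 1 and -1.96 in batch 2, and it was called under all 22 alternatives tried.

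*Mertk* (ENSMUSG00000014361.5, chromosome 2, 128698956 to 128802894, plus strand) encodes the TAM receptor that drives uptake of apoptotic cells in resting tissue phagocytes. It stood at 560.49, 562.55 and 609.3 CPM in WT-Sham and at 430.38, 443.8 and 389.24 CPM in miKO-Sham. In WT-tFCI it was at 295.27, 335.06 and 400.72 CPM, and in miKO-tFCI at 126.47, 297.6 and 349.63 CPM. Each tFCI library but WT-tFCI replicate 3 was below all Sham libraries, and miKO-tFCI replicate 1 was by far the lowest. *Mertk* fell after tFCI by 0.76 on the log2 scale in WT (SE 0.23, adjusted p = 0.0159 by edgeR) and by 0.78 in miKO (SE 0.23, adjusted p = 0.014 by edgeR). In miKO the within-batch values were -1.76 and -0.37, and without miKO-tFCI replicate 1 the change was -0.46, under the fold threshold. In WT the call was lost without WT-Sham replicate 1 (adjusted p = 0.0639 by edgeR) or WT-tFCI replicate 2 (0.0509), and in miKO without miKO-Sham replicate 1 (0.0778). Without a batch term both calls were lost (0.054 and 0.0606).

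Between genotypes the *Mertk* values were -0.45 in Sham (SE 0.23, adjusted p = 0.198 by edgeR) and -0.46 in tFCI (SE 0.23, adjusted p = 0.216), neither called, although the CPM of the Sham groups did not overlap. The interaction was -0.02 with a 95% interval from -0.70 to 0.67. The summed microglial markers also had their lowest value, 8223 CPM, in miKO-tFCI replicate 1, and their part in the *Mertk* level was not tested.

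*Tyro3* (ENSMUSG00000027298.17, chromosome 2, 119797733 to 119818104, plus strand), the TAM receptor best known from neurons, was close to the detection limit of 3 reads. It had 0, 4 and 0 reads in WT-Sham, 0, 7 and 2 in miKO-Sham, 30, 1 and 3 in WT-tFCI and 38, 14 and 3 in miKO-tFCI. The libraries with 30 and 38 reads were the 2 tFCI libraries of batch 1, and no comparison was called (adjusted p from 0.175 to 0.897 by edgeR), although WT-tFCI vs. WT-Sham was called without WT-Sham replicate 2 (adjusted p = 0.0459 by edgeR). In the same pair of libraries the summed level of 6 mural cell and fibroblast markers was highest, at 616 and 1334 CPM, against 141 to 445 CPM in the other tFCI libraries. The CD45int CD11b+ gate is meant to leave such cells out, and whether they gave the *Tyro3* reads was not tested.

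Between genes, levels were compared as RPKM (CPM per kilobase of merged exon). *Mertk* made up 97.9% to 98.6% of the summed TAM receptor RPKM in WT-Sham, 83.1% to 86.2% in miKO-Sham, 82.0% to 84.8% in WT-tFCI and 58.0% to 71.1% in miKO-tFCI. The share of *Axl* was 1.70% ± 0.385 (SD, n = 3), 15.1% ± 1.59, 16.3% ± 1.06 and 33.2% ± 6.56 in the same order. *Mertk* RPKM exceeded *Axl* RPKM 46.3 to 72.9 times in WT-Sham libraries, 4.92 to 6.25 times in miKO-Sham, 4.75 to 5.59 times in WT-tFCI and 1.42 to 2.47 times in miKO-tFCI. *Mertk* thus remained the more abundant TAM receptor RNA in all 12 libraries. These shares were chosen as a description after the levels were seen and were not tested.

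**Figure D2:**
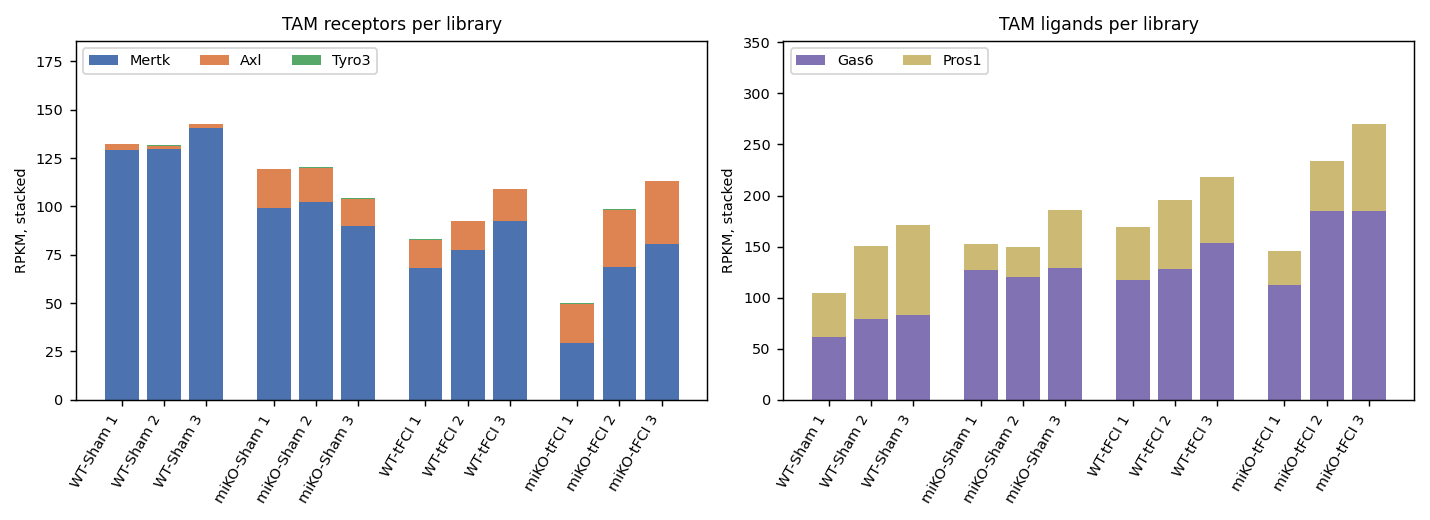
RPKM (vertical axes, from 0) of the TAM receptors (left) and of their ligands (right), stacked in each of the 12 libraries. The *Axl* segment is thinnest in the WT-Sham libraries (1.70% of the receptor sum on average) and thickest in miKO-tFCI (33.2%), and *Tyro3* is barely visible.

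*Gas6* (ENSMUSG00000031451.6, chromosome 8, 13465374 to 13494490, minus strand) encodes the ligand shared by the TAM receptors. It was at 157.7, 202.9 and 212.47 CPM in WT-Sham, 323.62, 306.88 and 328.92 CPM in miKO-Sham, 299.22, 326.51 and 390.61 CPM in WT-tFCI, and it was 285.78, 471.65 and 469.88 CPM in miKO-tFCI. WT-Sham was below all other libraries, and the other groups overlapped. The log2 fold change was 0.76 in miKO-Sham vs. WT-Sham (SE 0.15, adjusted p = 0.00251 by edgeR) and 0.83 in WT-tFCI vs. WT-Sham (SE 0.15, adjusted p = 6.21e-04 by edgeR). It was 0.32 in miKO-tFCI vs. miKO-Sham (95% interval from -0.0036 to 0.64, adjusted p = 0.103 by edgeR) and 0.25 between the tFCI groups (adjusted p = 0.314). The interaction, -0.51, had an adjusted p of 0.222 by edgeR, so a smaller effect of tFCI on *Gas6* in miKO was not shown. *Gas6* shares 34 exon bases (1.33%) with *Tmem255b* on the opposite strand, and the library kit does not mark strand.

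*Pros1* (ENSMUSG00000022912.8, chromosome 16, 62854307 to 62929346, plus strand) encodes protein S, the ligand of MERTK and TYRO3 and a blood anticoagulant. Its level was 175.97, 289.62 and 358.66 CPM in WT-Sham, 103.85, 119.17 and 232.21 CPM in miKO-Sham, 210.05, 274.12 and 264.14 CPM in WT-tFCI, and it was 135.77, 199.44 and 351.73 CPM in miKO-tFCI. The spread between replicates was wide, with replicate 1 the lowest in every group. Between the Sham groups it was lower in miKO by a log2 fold change of -0.84 (SE 0.24, adjusted p = 0.0242 by edgeR), with -0.76 and -0.95 within the batches. On CPM these groups overlapped, and the call was lost in batch 2 alone (adjusted p = 0.0523), without a batch term (0.164), and without WT-Sham replicate 3 (0.0845), miKO-Sham replicate 1 (0.0649) or miKO-Sham replicate 2 (0.102). With miKO-Sham replicates 1 and 2 averaged into 1 library it was lost as well, at a log2 fold change of -0.57 (adjusted p = 0.127 by edgeR). The value after tFCI was -0.08 in WT (adjusted p = 0.807 by edgeR) and 0.57 in miKO (adjusted p = 0.0708 by edgeR). The miKO value was called with DESeq2 (0.038), with at least 10 counts in every library (0.0418), and without miKO-Sham replicate 3 (0.0152) or miKO-tFCI replicate 2 (0.037).

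*Gas6* made up 48.7% to 59.0% of the summed ligand RPKM in WT-Sham and 69.4% to 83.3% in miKO-Sham, without overlap. It made up 65.6% to 70.3% in WT-tFCI and 68.2% to 79.1% in miKO-tFCI.

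*Mfge8* (ENSMUSG00000030605.15, chromosome 7, 79133768 to 79149060, minus strand) encodes MFG-E8, which bridges phosphatidylserine to integrins. It was at 32.1, 22.5 and 27.6 CPM in WT-Sham, 30.8, 25.8 and 24.5 CPM in miKO-Sham, 61.5, 37.3 and 35.1 CPM in WT-tFCI, and it was 100.35, 43.9 and 39.5 CPM in miKO-tFCI. All tFCI libraries were above all Sham libraries, and replicate 1 stood well above the others in both tFCI groups. *Mfge8* rose after tFCI by a log2 fold change of 0.66 in WT (SE 0.19, adjusted p = 0.0122 by edgeR) and 1.08 in miKO (SE 0.19, adjusted p = 4.25e-04 by edgeR). In batch 2 alone the WT value was 0.53 (adjusted p = 0.0288), under the fold threshold. Leaving out WT-Sham replicate 1, WT-Sham replicate 2 or WT-tFCI replicate 2 also ended that call (adjusted p of 0.1, 0.055 and 0.0568 by edgeR), as did leaving out the batch term (0.116).

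Genotype did not pass the test for *Mfge8*, with -0.02 in Sham (95% interval from -0.43 to 0.39) and 0.40 in tFCI (adjusted p = 0.182 by edgeR). The 2 libraries with the highest *Mfge8* were those with the highest mural cell and fibroblast, endothelial and astrocyte marker sums. They also had the highest oligodendrocyte, lymphocyte and dendritic cell sums. The dendritic cell sum was 107 and 333 CPM in them against 15.6 to 50.1 CPM in the other tFCI libraries. The endothelial sum was 149.97 and 238 CPM in them against 46.5 to 87.3 CPM in the other tFCI libraries, and the astrocyte sum was 276 and 569 CPM against 165 to 233 CPM. Within batch 2 *Mfge8* differed by 0.53 in WT and 0.72 in miKO after tFCI, and the mural cell and fibroblast sum was higher after tFCI there too, at 141 to 445 CPM against 2.98 to 9.61 CPM in Sham. The part of these cells in the *Mfge8* level was not tested.

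**Figure D3:**
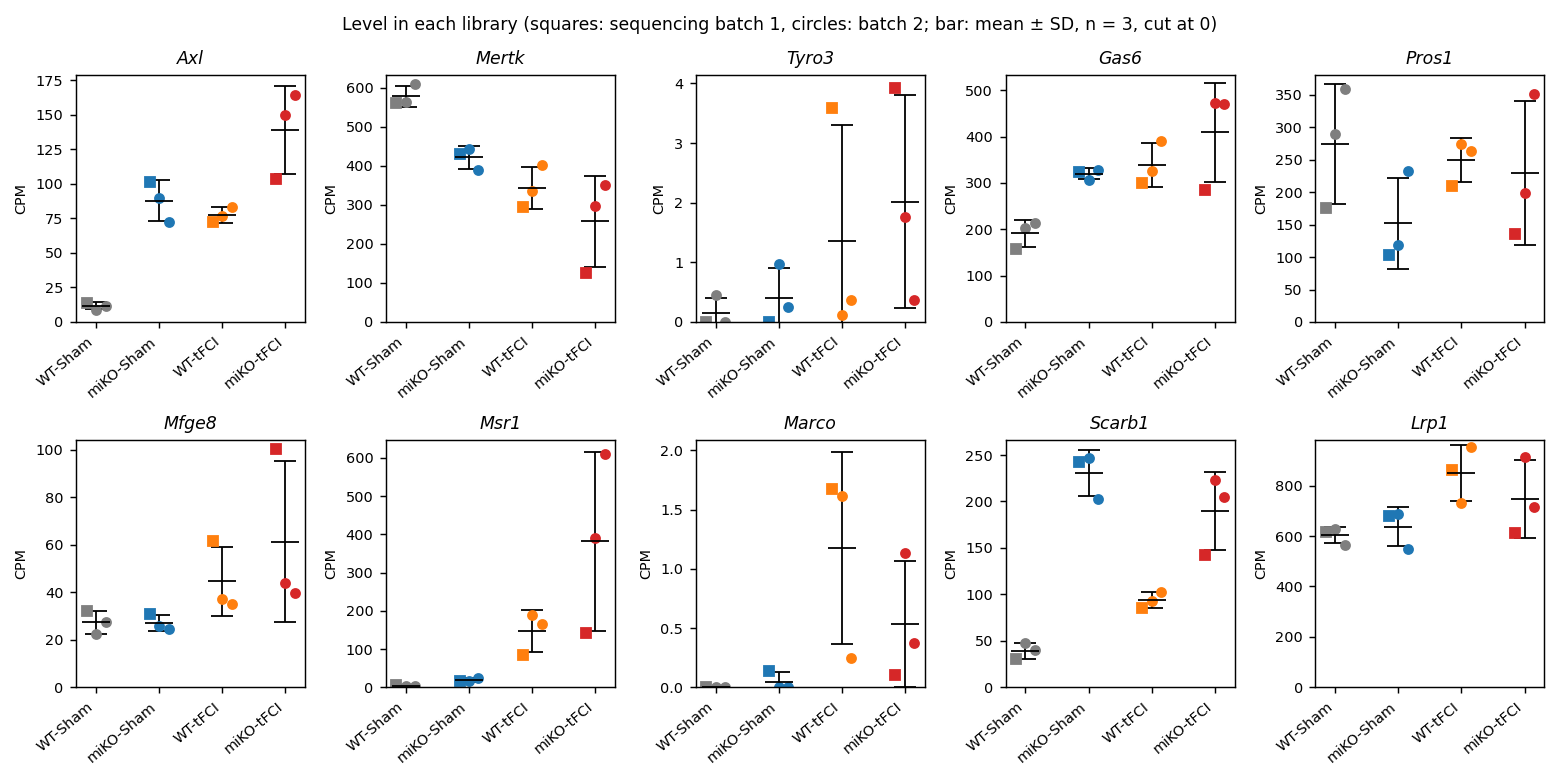
CPM (vertical axes, from 0, a separate scale for each gene) of the 10 genes in each of the 12 libraries, with squares for batch 1, circles for batch 2 and bars for the mean ± SD of 3 libraries, cut at 0. *Axl* and *Scarb1* are lowest in WT-Sham, *Mertk* is highest there, *Mfge8* and *Tyro3* are highest in the squares of the tFCI groups, and *Msr1* spreads from 142 to 611 CPM in miKO-tFCI.

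*Msr1* (ENSMUSG00000025044.16, chromosome 8, 39581685 to 39642673, minus strand) encodes the class A scavenger receptor of macrophages, which binds modified LDL. Its level was 6.25, 2.58 and 4.10 CPM in WT-Sham, 16.4, 15.8 and 24.6 CPM in miKO-Sham, 85.1, 189.75 and 164.24 CPM in WT-tFCI, and it was 142.48, 391.6 and 611.26 CPM in miKO-tFCI. Both tFCI groups were above both Sham groups, miKO-Sham was above WT-Sham, and the tFCI groups overlapped through miKO-tFCI replicate 1. It rose after tFCI by 4.98 in WT (SE 0.44, adjusted p = 7.79e-07 by edgeR), 31.7-fold, and by 4.20 in miKO (SE 0.40, adjusted p = 1.96e-06 by edgeR), 18.4-fold. Of the 9 genes it had the largest change after tFCI in both genotypes. In batch 1 the values were 3.72 and 3.10, and in batch 2 they were 5.66 and 4.62.

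*Msr1* was higher in miKO-Sham than in WT-Sham, with a log2 fold change of 2.10 (SE 0.44, adjusted p = 0.00346 by edgeR). In miKO-tFCI vs. WT-tFCI it was 1.32 (SE 0.34, adjusted p = 0.025 by edgeR), with 0.74 in batch 1 and 1.47 in batch 2. That call was lost with DESeq2 (adjusted p = 0.0634), without a batch term (0.103), and without any of the 3 WT-tFCI libraries or miKO-tFCI replicate 3 (0.0743 to 0.129). The interaction was -0.78 with a 95% interval from -1.96 to 0.40 (adjusted p = 0.517 by edgeR), and was called only when no filter on low counts was used (adjusted p = 0.0462 by edgeR).

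Among markers of other myeloid cells, the monocyte and border-associated macrophage sums were, like *Msr1*, higher after tFCI in both genotypes. They were also higher in miKO-tFCI than in WT-tFCI. The neutrophil sum was higher in miKO-tFCI than in WT-tFCI, but not higher after tFCI in WT. Between the Sham groups the monocyte and border-associated macrophage sums overlapped, and *Msr1* did not. In each tFCI group, replicate 1 had the lowest *Msr1*. The border-associated macrophage sum was lowest there too. The monocyte sum was highest there in WT-tFCI (242 CPM) and not lowest in miKO-tFCI (669 CPM). The sum of 9 monocyte markers was 37.0 to 104 CPM in WT-Sham, 65.6 to 190 in miKO-Sham, 107 to 242 in WT-tFCI and 467 to 695 in miKO-tFCI, and the sum of 10 markers of border-associated macrophages was 105 to 134, 108 to 318, 188 to 289 and 343 to 640 CPM. The sum of 8 neutrophil markers was 632 to 1332, 1048 to 1112, 487 to 570 and 871 to 1164 CPM in the same order, so that WT-tFCI was lowest, and 4 of the 7 tested were called higher in miKO-tFCI than in WT-tFCI. After tFCI in miKO, 3 of the 7 were called higher and 1 lower. The most abundant neutrophil marker outside miKO-tFCI was *Csf3r*, at means of 565, 764, 352 and 261 CPM in the same order. It was lowest in miKO-tFCI, where all other listed neutrophil markers had their highest mean. In miKO-tFCI vs. WT-tFCI, 4 of the 9 monocyte and 3 of the 10 border-associated macrophage markers were called higher, and 6 of the 10 microglial markers lower. These 10 include *Cx3cr1*, which carries CreER in miKO. No marker of these lists was at 0 throughout a group. These sums moved with the *Axl* and *Scarb1* differences between the tFCI groups as well, and their part in any of them was not tested. In sorted bulk RNA, fewer cells of a type and less RNA per cell cannot be told apart.

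**Figure D4:**
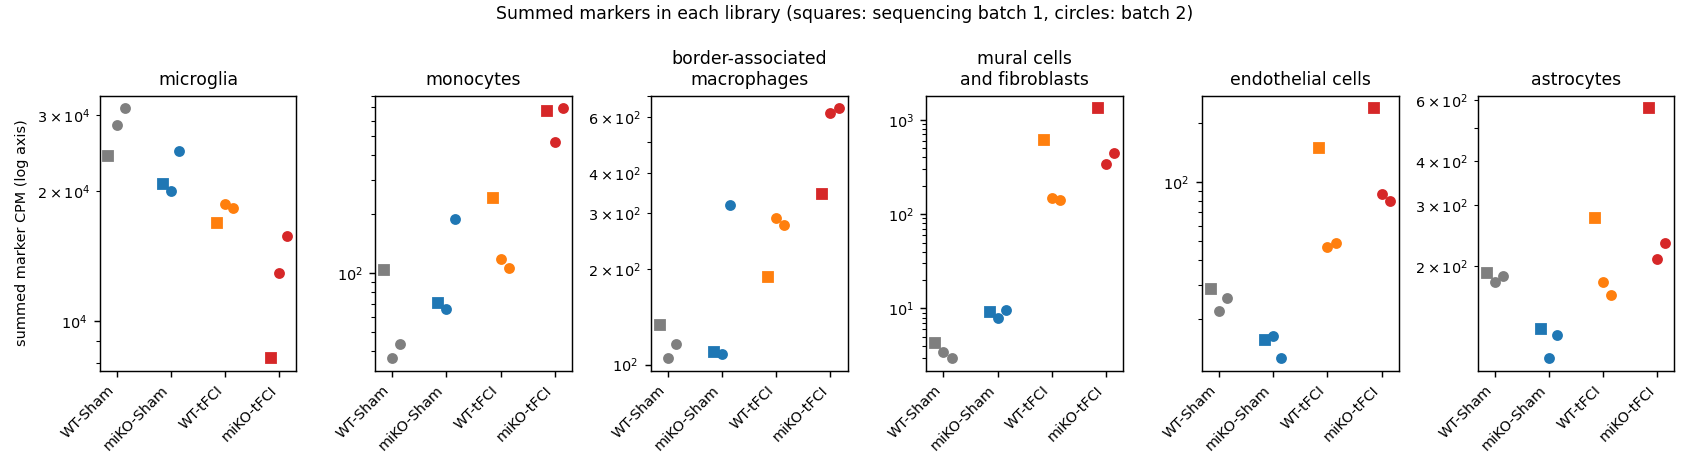
Summed CPM (vertical axes, logarithmic, a separate scale for each panel) of the markers of 6 cell types in each of the 12 libraries, with squares for batch 1 and circles for batch 2. Microglial markers are highest in WT-Sham and lowest in miKO-tFCI, apart from an overlap of WT-Sham and miKO-Sham, monocyte markers are highest in miKO-tFCI (467 to 695 CPM), and the mural cell and fibroblast sum is highest in the 2 tFCI libraries of batch 1.

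*Marco* (ENSMUSG00000026390.7, chromosome 1, 120474538 to 120505024, minus strand), a class A receptor of marginal-zone and alveolar macrophages, had 0, 0 and 0 reads in WT-Sham, 1, 0 and 0 in miKO-Sham, 14, 14 and 2 in WT-tFCI and 1, 9 and 3 in miKO-tFCI. Most reads came from tFCI libraries, and the filter kept it out of the main test. It was kept in 12 alternatives, and in WT-tFCI vs. WT-Sham it was called in 12 of them (adjusted p of 0.00147 to 0.029 by edgeR). In each other comparison it was called in 0 of the 12. It passed there through tFCI libraries and could not fall from 0 reads, so these calls are descriptions. Over the pooled group, the 30 reads of WT-tFCI stood in CPM 10.7-fold above the 3 reads that a count of 0 in WT-Sham allows. This ratio allows for the counting error of the 0 only, not for that of the 30 reads or for the spread between libraries. The miKO groups held 13 reads after tFCI and 1 in Sham.

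*Scarb1* (ENSMUSG00000037936.15, chromosome 5, 125277087 to 125341094, minus strand) encodes the class B receptor SR-BI, which exchanges cholesterol with HDL. It stood at 30.3, 47.3 and 40.5 CPM in WT-Sham and at 242, 247 and 202 CPM in miKO-Sham. In WT-tFCI it was at 85.6, 92.4 and 102.95 CPM, and in miKO-tFCI at 141.86, 223 and 204.54 CPM. The genotypes did not overlap under either surgery, and WT-tFCI lay between WT-Sham and both miKO groups.

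*Scarb1* was higher in miKO-Sham than in WT-Sham by a log2 fold change of 2.58 (SE 0.17, adjusted p = 1.68e-07 by edgeR), 5.96-fold, and higher in miKO-tFCI than in WT-tFCI by 1.00 (SE 0.16, adjusted p = 0.00129 by edgeR). It rose after tFCI in WT by 1.26 (SE 0.16, adjusted p = 3.49e-05 by edgeR). In miKO the value after tFCI was -0.31 (95% interval from -0.65 to 0.03, adjusted p = 0.127 by edgeR). The interaction was -1.57 (SE 0.23, adjusted p = 0.00144 by edgeR), with -2.26 in batch 1 and -1.22 in batch 2. The calls of *Scarb1* between genotypes, after tFCI in WT and in the interaction held under all alternatives tried.

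*Lrp1* (ENSMUSG00000040249.15, chromosome 10, 127538161 to 127621148, minus strand, 88 merged exons) encodes a large receptor for lipoproteins, proteases and myelin components. Its level was 566 to 627 CPM in WT-Sham, 548 to 686 in miKO-Sham, 732 to 954 in WT-tFCI and 610 to 915 in miKO-tFCI. It was not called in any comparison. In WT-tFCI vs. WT-Sham the libraries did not overlap and the adjusted p was 0.0298 by edgeR, but the log2 fold change of 0.49 (SE 0.17) was under the threshold of 0.58. In the other comparisons the values lay between -0.27 and 0.22, with 95% intervals within -0.77 and 0.58.

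Within each group the order of the 10 genes by mean RPKM differed. In WT-Sham it ran *Mertk* (133 ± 6.37 RPKM, SD, n = 3), *Gas6* (75.0 ± 11.5), *Pros1* (67.2 ± 22.6), *Lrp1* (34.1 ± 1.83), *Mfge8* (5.84 ± 1.02), *Scarb1* (4.63 ± 1.01), *Axl* (2.31 ± 0.508), *Msr1* (0.679 ± 0.291), *Tyro3* and *Marco*. In that order *Gas6* and *Pros1*, *Mfge8* and *Scarb1*, and *Tyro3* and *Marco* overlapped with each other. In the other 3 groups *Gas6* came first, at 126 ± 4.52 RPKM in miKO-Sham, 133 ± 18.4 in WT-tFCI and 161 ± 41.9 in miKO-tFCI, above the next gene without overlap. *Msr1* was number 8 of 10 in both Sham groups, number 5 in WT-tFCI and number 2 in miKO-tFCI, where its 60.2 ± 37.0 RPKM overlapped with *Mertk* (59.5 ± 26.9), which overlapped with *Pros1* (56.0 ± 27.1). *Scarb1* and *Axl* stood at numbers 5 and 6 in miKO-Sham, at 27.1 ± 2.89 and 17.4 ± 2.92 RPKM.

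Other engulfment genes were read from a list of 32 receptors, bridging molecules and adaptors, 29 of them tested. After tFCI 9 rose and 2 fell in WT, beside 20.9% and 11.7% of all genes tested, and 8 rose and 6 fell in miKO, beside 21.9% and 13.9%. The risers include *Megf10*, at 0 CPM in both Sham groups, which passed the filter through tFCI libraries and could not fall. Between genotypes 9 were higher and 1 lower in miKO-Sham (8.58% and 6.8% of all genes), and 4 were higher and 3 lower in miKO-tFCI (4.08% and 4.71%). The medians of the log2 fold changes were 0.32, -0.14, 0.49 and 0.23.

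In WT after tFCI, *Calr* (calreticulin, an eat-me signal) rose by a log2 fold change of 0.80 and *Ucp2* (a mitochondrial carrier that supports continued uptake) by 0.88. *Elmo1* (an adaptor for Rac activation) fell by 1.21 and *Jmjd6* by 0.67. The value of *Elmo1* after tFCI in miKO was -0.90, also called. After tFCI, *Cd300lf* (a phosphatidylserine receptor) rose by 2.14 in miKO and by 5.12 in WT. It was higher by 4.02 in miKO-Sham than in WT-Sham. *Thbs1* (thrombospondin 1) rose after tFCI by 4.57 in miKO and by 2.76 in WT. Its level was 6.31 ± 0.314, 5.16 ± 1.97, 58.4 ± 63.7 and 153 ± 120.1 CPM (SD, n = 3) in the Sham groups (WT, then miKO) and the tFCI groups (WT, then miKO). In miKO after tFCI, *C1qb* (complement C1q) fell by 0.66 and *Itgb5* (the β5 integrin, a partner of MFG-E8) by 0.68.

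In miKO-Sham vs. WT-Sham, *C1qb* was higher by 0.69 and *Trem2* (a lipid-sensing receptor) by 0.68, and *Elmo1* was lower, at -1.10. In miKO-tFCI vs. WT-tFCI, *Cd300lf* and *Thbs1* were higher by 1.04 and 1.55, and *Itgb5* and *Elmo1* lower, at -0.77 and -0.80. In the interaction 0 of the 29 were called positive (2 at an unadjusted p under 0.05, 0 with DESeq2) and 3 negative, beside 1.25% and 2.57% of all genes. Of the 3, *Trem2* (-1.01) and *Itgb3* (-0.95, the β3 integrin) were the most abundant. *Trem2* was at 1440.0 ± 292, 2293 ± 189.98, 1142 ± 25.1 and 909 ± 104 CPM in the same order of groups.

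Of 19 other scavenger receptors 17 were tested, and 4 of the 19 (*Cd36*, *Stab1*, *Stab2* and *Megf10*) also belong to the list above. After tFCI 11 rose and 0 fell in WT (0 also at an unadjusted p under 0.05 and with DESeq2), and 7 rose and 1 fell in miKO, where 20.9% and 11.7% of all genes rose and fell in WT and 21.9% and 13.9% in miKO. Some risers were at or near 0 in Sham, as *Megf10*, with a mean of 0 CPM in both Sham groups, 1.15 in WT-tFCI and 1.58 in miKO-tFCI. Such genes passed the filter through tFCI libraries and could hardly fall, so these counts are descriptions. In miKO-Sham 6 were higher and 0 lower than in WT-Sham (1 lower at an unadjusted p under 0.05, 0 with DESeq2), beside 8.58% and 6.8% of all genes. In miKO-tFCI 3 were higher and 1 lower than in WT-tFCI, beside 4.08% and 4.71%. The medians were 1.03, 0.76, 0.61 and 0.72. *Cd68* (a lysosomal class D receptor) rose in WT by 0.96, from 884 ± 91.9 to 1719 ± 124 CPM, and *Cd14* (the LPS co-receptor) by 1.03. In miKO after tFCI, *Cxcl16* rose by 0.60 (1.62 in WT) and *Cd163*, itself a marker of border-associated macrophages, by 1.98. *Clec7a* (dectin-1) fell in miKO by 0.86.

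In miKO-Sham vs. WT-Sham, *Cd68* was higher by 1.24 and *Stab1* (stabilin-1) by 1.43. In miKO-tFCI vs. WT-tFCI, *Clec7a* was higher by 1.49 and *Cd163* by 1.80, and *Cd14* was lower, at -0.73. In the interaction 0 were called positive (2 at an unadjusted p under 0.05, 0 with DESeq2) and 4 negative, beside 1.25% and 2.57% of all genes. Of the 4, *Cd68* (-1.06) and *Cd14* (-0.94) were the most abundant. *Clec7a* was at 17.6 ± 2.59, 448 ± 164, 87.7 ± 8.26 and 246 ± 95.5 CPM (SD, n = 3) in the Sham groups (WT, then miKO) and the tFCI groups (WT, then miKO).

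Of 15 lipoprotein receptors related to *Lrp1* and their helpers, 13 were tested. After tFCI 4 rose and 2 fell in WT, and 4 rose and 2 fell in miKO, beside 20.9% and 11.7% of all genes in WT and 21.9% and 13.9% in miKO. In miKO-Sham 1 was higher and 0 lower than in WT-Sham, beside 8.58% and 6.8% of all genes. In miKO-tFCI vs. WT-tFCI 0 were called, beside 4.08% of all genes higher and 4.71% lower. In the interaction 0 were called, beside 1.25% positive and 2.57% negative. Counts of 0 among 13 genes are near these shares. For each lower count of 0 between genotypes, 1 gene was lower at an unadjusted p under 0.05 in edgeR and 0 with DESeq2. Of the 0 called higher between the tFCI groups, 4 had an unadjusted p under 0.05 in edgeR, and DESeq2 called 1. In the interaction 1 had a negative value at an unadjusted p under 0.05 in edgeR and 0 a positive one, and DESeq2 called 0. The medians of the log2 fold changes were 0.35, 0.34, 0.31 and 0.38 in the comparisons of 2 groups. *Lrpap1* (the chaperone that keeps LRP1 from binding ligand on its way to the surface) rose after tFCI by 1.01 in WT and 0.70 in miKO, and *Sorl1* (a sorting receptor) by 1.09 in WT. *Mylip* (a ubiquitin ligase controlled by sterols) fell by 0.78 in WT and 1.26 in miKO, and *Lrp5* (a Wnt co-receptor) by 0.71 and 0.97. *Lrp8* (the ApoE receptor 2) rose in miKO by 2.32.

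*Mylip* was the called member in miKO-Sham vs. WT-Sham, higher by 1.12, at 220 ± 1.96, 476 ± 56.1, 129 ± 7.90 and 203 ± 69.1 CPM (SD, n = 3) in the Sham groups (WT, then miKO) and the tFCI groups (WT, then miKO).

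The genes whose pattern was most like each of the 9 were taken among genes with a mean of at least 10 CPM, by Pearson's r of batch-adjusted log2 CPM over the 12 libraries. The points share libraries, groups and depth, and these r are descriptions. For *Axl* they were *Cst7* (r = 0.993) and *Cybb* (0.990), for *Scarb1* *Taldo1* (0.985) and *Sqstm1* (0.984), and for *Msr1* *Glrx* (0.988) and *Ifit2* (0.987). For *Mertk* they were *C5ar2* (0.974) and *P2rx7* (0.968). For *Gas6* the first was *Tmem255b* (0.990), the neighbour whose exons overlap it, at 15.6 to 20.5 CPM in WT-Sham and 26.5 to 44.6 CPM in the other groups, followed by *Pigs* (0.973). *Pros1* had *Vps41* (0.939) and *Osgin2* (0.931), *Mfge8* had *Ybx3* (0.984) and *Copz2* (0.977), *Lrp1* had *Mroh1* (0.964) and *Dot1l* (0.915), and *Tyro3* had *Abhd8* (0.952) and *Spint2* (0.909).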

How the data were processed

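RNA of sorted microglia was measured in 12 libraries made with SMART-Seq v4, which does not mark strand, and groups and batches were read from the sample labels. Per the submitters' processing notes, FastQC 0.11.9, Trim Galore, HISAT2 2.2.1, SAMtools and HTSeq 1.99.2 were used with mm10/GRCm38.p6. Counts per gene were deposited by the authors without normalization, and 30.7% to 38.5% of the counted reads of a library lay on genes, from which library sizes were taken.

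Symbols came from GENCODE M21 (GRCm38) for 54349 of 55401 identifiers and by unversioned identifier for 792 more. In R 4.3.3, edgeR 4.0.16 kept genes by filterByExpr and fitted group and batch in 1 quasi-likelihood model, with TMM factors of 0.864 to 1.11. Standard errors and 95% intervals came from the same fit. Batch was removed with limma 3.58.1 for correlations only (prior count 2). The alternatives were other scaling factors, other filters, DESeq2 1.42.0, no batch term, batch 2 alone, a replicate block, only the groups compared, and each library left out. The steps were also tested on simulated data.

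The 10 genes, the lists and the tests were chosen with earlier results of these data known. Besides the 10 and *Hdac3*, the text names from each list the 2 risers and the 2 fallers called in a comparison that had the highest mean CPM, and the 2 genes most like each of the 9 in pattern. After the data were seen, averaging miKO-Sham replicates 1 and 2 into 1 library, and putting replicate 2 in batch 1, were added. One gene is not reported here and was left out of the list counts. A replicate is a set of combined animals, so p values measure the spread between such sets.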

Additional observations from a re-analysis of the deposited data

Results flagged for a closer look

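For 9 genes the response to tFCI differed between genotypes, by the interaction in edgeR's quasi-likelihood fit with Benjamini-Hochberg adjustment. They come from the 9 members tested and from lists with 29, 17 and 13 genes tested, some of them shared. Of all 16451 genes tested, 1.25% were called positive and 2.57% negative in the interaction. Among the 10 genes, those that differed were *Axl*, with an interaction of -2.07 (adjusted p = 8.6e-04), and *Scarb1*, with -1.57 (adjusted p = 0.00144). For *Axl* the log2 fold change after tFCI was 2.73 in WT and 0.66 in miKO, from Sham levels of 11.6 ± 2.56 and 87.7 ± 14.7 CPM (SD, n = 3). For *Scarb1* it was 1.26 in WT and -0.31 in miKO, from Sham levels of 39.4 ± 8.55 and 231 ± 24.6 CPM.

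Of the listed genes, *Clec7a* differed by -3.18 (adjusted p = 6.75e-04 by edgeR), *Cd300lf* by -2.98 (0.00119), *Cd68* by -1.06 (0.0133), *Cxcl16* by -1.02 (0.00436), *Trem2* by -1.01 (0.0194), *Itgb3* by -0.95 (0.0349) and *Cd14* by -0.94 (0.0469). *Clec7a* turned direction, with a log2 fold change after tFCI of 2.32 in WT and -0.86 in miKO. *Itgb3* was at 61.7 ± 2.01 CPM in WT-Sham, 139 ± 12.0 in miKO-Sham, 64.2 ± 5.14 in WT-tFCI and 76.1 ± 20.9 in miKO-tFCI. *Cd14* was at 499.65 ± 32.9, 585 ± 192, 1037 ± 231 and 617 ± 59.9 CPM in the same order, so that WT-tFCI had the highest mean. Groups of 3 libraries were too small for a check of single outlying samples.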

How the results depend on the processing

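The 9 genes tested gave 45 log2 fold changes, recomputed in 1013 alternatives, of which 960 kept direction and call, 29 lost the call, 6 gained one and 18 changed sign. The sign changes all concern values that were not called. For *Mfge8* in miKO-Sham vs. WT-Sham the value was 0.0088 with upper-quartile factors, and without single libraries it was between -0.17 and 0.15. For *Lrp1* and *Tyro3* in that comparison it ran from -0.0014 to 0.20 and from -0.46 to 5.50 without single libraries. For *Mertk* in the interaction it was 0.034 with at least 10 counts in every library, 0.041 without a batch term and 0.27 in batch 2 alone, and without single libraries it ran from -0.23 to 0.32, and for *Tyro3* from -4.59 to 1.51. *Tyro3* in the interaction was also at 0.11 with miKO-Sham replicates 1 and 2 averaged and at 0.34 with replicate 2 put in batch 1, both chosen after seeing the data; under these, *Pros1* lost its Sham call with the first, and no other call of the 9 genes changed. The cause was not tested. The number of genes called among the 9 in miKO-tFCI vs. WT-tFCI, 3, ran from 1 to 3 without single libraries and was 1 without WT-tFCI replicate 1, WT-tFCI replicate 2 or miKO-tFCI replicate 3. In the other comparisons the number stayed within 1.5 times its value, at 4 to 6 in WT-tFCI vs. WT-Sham, 3 to 5 in miKO-tFCI vs. miKO-Sham, 4 to 5 in miKO-Sham vs. WT-Sham and 2 to 3 in the interaction. With the replicate number as a block in place of batch, the numbers were 6, 4, 5, 3 and 2, as with batch. Deviations of same-numbered libraries from their group means, with batch not removed, correlated at r from -0.06 to 0.67. Of 6 pairs each, r was above 0.1 in 4 for replicate 1, 1 for replicate 2 and 6 for replicate 3. Of the 12 libraries, 8 correlated best with their own number. Replicate 1 libraries also share batch 1, and these values cannot settle whether same-numbered libraries were paired. Of all genes tested, 1446 were called in miKO-tFCI vs. WT-tFCI, with 2193 without the filter, 701 without a batch term, 2535 with only the groups compared and 616 to 917 without WT-tFCI replicate 2 or 3 or miKO-tFCI replicate 3. In the interaction 629 were called, with 1272 without the filter, 1004 with DESeq2, 303 without a batch term and 281 to 383 without WT-Sham replicate 2 or 3, miKO-Sham replicate 1, or WT-tFCI replicate 2 or 3. In miKO-tFCI vs. miKO-Sham 5887 were called, and 3744 with at least 10 counts in every library, which tests fewer genes. Other scaling moved the median of all genes by at most 0.05 in log2. Scaled by total counts alone, 5 mean levels moved by more than 1 SD, as *Mertk* in WT-Sham, from 577 to 626 CPM. *Marco* and *Tyro3* are limited by depth, with 3 counts equal to 0.308 to 0.417 CPM.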
